A study of Mesostigma viride with 16 samples.

Results

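*Mesostigma viride* (strain NIES-296) is a single-celled, biflagellate freshwater alga of the charophyte lineage. The comparison described here sets the 2 High light libraries directly against the 2 Darkness libraries, which are the ends of the light range in a series of 15 libraries with values. High light cells were kept at 400 μmol photons for 24 h, and Darkness cells at 0 μmol photons for 24 h. Both were grown at 23 °C and pH 7.5, from 24-day-old cultures that had been kept in a cycle of 10 h light and 14 h dark at 50 μmol photons. The untreated libraries stayed at 50 μmol photons: 1 library of Control 1 (its replicate 2), and 2 libraries of Control 2, untreated cells to which the study's methods assign an equal volume of medium C at pH 7.5. In the study Control 1 is the reference for light and temperature, and Control 2 the reference for pH. The other 8 libraries were of cold (12 °C), high temperature (32 °C), high pH (pH 9.0) and low pH (pH 6.0), with 2 each. They were kept at 50 μmol photons for 24 h. Each library was made from a culture of many cells, the study describes the replicates as biological, and the time of day of the harvest is not given in the sources used here. With bulk RNA, a change in the number of cells in one state cannot be told apart from a change in the RNA of every cell.

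For an alga light is an energy source and a signal, and in excess a source of damage. Strong light harms the reaction centre of photosystem II, whose D1 protein is then cut out and made anew, and surplus energy is released as heat with the help of xanthophyll pigments. In the dark, carbon fixation stops, stored starch and organic acids are used for respiration, and in many algae the cell cycle waits for light. Names given to *M. viride* genes below are those of the homologs, mostly of *Arabidopsis*, that the study lists, and the roles are those known in *Arabidopsis*.

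Expression was given as FPKM, a fragment count scaled for transcript length and for library size, for every annotated gene. A gene was tested if it reached 0.5 FPKM in 2 or more libraries, and 14297 genes did. In the High light libraries 20039 and 19989 genes had a value above 0, against 20814 and 20870 in the Darkness libraries; the sequencing depth behind this difference could not be read from the values, and its part in the results was not tested. The 2 high temperature libraries stood apart from the rest, with a median of 2.57 and 2.98 FPKM over the tested genes, against 7.14 to 8.58 FPKM in the other 13. They entered the comparison through the minimum for tested genes and through the shared estimate of the spread.

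High light and darkness separated a large part of the transcriptome. At a false discovery rate (FDR) of 0.01 and a change of at least 2-fold, 1952 of the 14297 tested genes (13.7%) differed by limma on log2(FPKM + 0.1), and 1168 of these (8.17% of the genes tested) were higher and 784 (5.48%) lower in High light than in Darkness. The median log2 fold change over all tested genes was −0.09. How the calls split between directions moved with the scaling of the libraries: 59.8% of the called genes were higher in High light with the FPKM values as deposited, 72.7% with equal library totals and 47.6% with equal upper quartiles, and the median of all genes was then 0.04 and −0.21. All 1952 called genes had High light and Darkness libraries that did not overlap, but so had most genes: the 2 High light libraries lay above the 2 Darkness libraries in 36.6% of all tested genes, and below them in 46.6%. Changes of at least 4-fold were called higher in 331 genes (2.32%) and lower in 132 (0.923%). At 16-fold or more there were 24 higher and 8 lower genes. In the darkness libraries 3 of the higher genes were listed at 0, and in the high light libraries 2 of the lower genes.

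**Figure D1:**
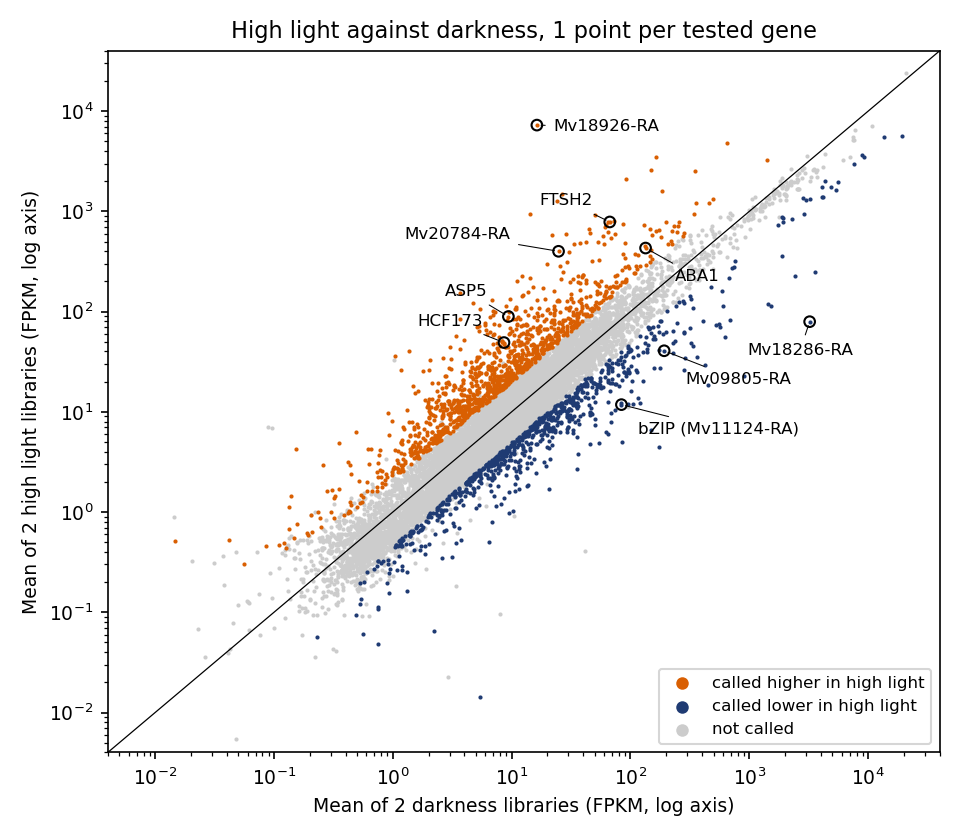
Mean FPKM of the 2 High light libraries (vertical log axis) against that of the 2 Darkness libraries (horizontal log axis), 1 point for each tested gene with a mean above 0 in both groups (77 genes are left out). Orange points are the 1168 genes called higher and blue points the 784 called lower in High light, grey points were not called, the line marks equal values, and circles mark genes named in the text; Mv18926-RA lies farthest above the line.

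The called genes changed what the messenger RNA pool was made of. The 1168 genes called higher held 18.7% and 18.0% of the FPKM total in the High light libraries, against 3.71% and 3.73% in the Darkness libraries. The 784 genes called lower held 8.68% and 8.93% in High light, against 24.4% and 23.9% in Darkness. These shares follow from how the genes were chosen and are given as a description. The genes called lower were the more concentrated group: in the Darkness libraries their 10 most abundant members made up 12.6% and 12.1% of the FPKM total, whereas the 10 most abundant genes of the higher group made up 5.16% and 4.796% in the High light libraries. Of the called genes, 1895 are on none of the study's lists of named genes.

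Among well expressed genes the widest responses belonged to genes without a name in those lists. Mv18926-RA had 6937 and 7562 FPKM in High light, against 16.6 and 16.0 FPKM in Darkness, a 445-fold difference of the means (log2 fold change 8.79 ± 0.07 SE, limma adjusted p = 2.71e-14). Mv20602-RA had 962 and 941 FPKM in High light, against 14.5 and 14.0 FPKM in Darkness (6.05 ± 0.10). At the other end, Mv18286-RA fell to 83.0 and 75.6 FPKM in High light, against 3262 and 3172 FPKM in Darkness (−5.34 ± 0.10, adjusted p = 9.00e-12). Mv16633-RA fell to 24.4 and 21.6 FPKM in High light, against 900 and 893 FPKM in Darkness (−5.28 ± 0.18). These rose or fell most among the genes that averaged 10 FPKM or more in the 4 libraries. None of the untreated libraries reached either end for these genes. Mv18926-RA had 143 FPKM in Control 1 and 187 and 199 FPKM in Control 2, far below High light and above Darkness. Mv18286-RA had 417 FPKM in Control 1 and 429 and 424 FPKM in Control 2, near the middle of its span on the log scale.

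Several photosynthesis genes changed strongly. Of the 12 genes on the study's photosynthesis list 11 were tested, and 4 were called higher and 1 lower (45.5% called, against 13.7% of all tested genes), with a median log2 fold change of 0.45 against −0.09 for all genes. The list is short and was made by the study. The gene for PPDK1 (pyruvate orthophosphate dikinase) did not pass the minimum, with at most 0.114 FPKM in any library.

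Both photosystem II repair genes on this list rose. FTSH2 (VAR2, Mv19820-RA), a subunit of the thylakoid protease that removes damaged D1 protein, had 788 and 780 FPKM in High light, against 66.8 and 67.1 FPKM in Darkness, which is an 11.7-fold rise (log2 fold change 3.55 ± 0.06, adjusted p = 3.84e-12). HCF173 (Mv13914-RA), which is needed to translate the D1 messenger, had 49.9 and 48.2 FPKM in High light, against 8.77 and 8.47 FPKM in Darkness (5.69-fold, 2.50 ± 0.07, adjusted p = 1.26e-10). For both genes the replicates lay close together and the groups far apart. Their untreated levels differed in place: FTSH2 had 149 FPKM in Control 1 and 137 and 120 FPKM in Control 2, more than Darkness, whereas HCF173 had 9.01 FPKM in Control 1 and 10.2 and 8.88 FPKM in Control 2, which was close to its Darkness level. Against Control 2, HCF173 differed by 2.36 on the log2 scale in High light (adjusted p = 5.29e-10) and by −0.14 in Darkness (adjusted p = 0.113).

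Among the enzymes and carriers of carbon metabolism the response was mixed. ASP5 (Mv13545-RA), an aspartate aminotransferase homolog, had 94.0 and 84.5 FPKM in High light, against 9.04 and 9.74 FPKM in Darkness (9.51-fold, 3.23 ± 0.08). The second ASP5 homolog, Mv14894-RA, had 75.6 and 75.4 FPKM in High light, against 95.8 and 95.2 FPKM in Darkness, and its change of −0.34 was below the 2-fold limit. The 2 ASP5 homologs thus lay on opposite sides of no change. DTC (Mv04123-RA), a mitochondrial carrier of di- and tricarboxylates, had 288 and 281 FPKM in High light, against 96.9 and 93.1 FPKM in Darkness (2.998-fold, 1.58 ± 0.05). The malic enzyme homolog me2 (Mv15086-RA) fell to 19.3 and 17.7 FPKM in High light, against 39.4 and 37.6 FPKM in Darkness (−1.06 ± 0.07). This call sits at the 2-fold limit and was lost with equal library totals (−0.92) and without High light replicate 2 (−0.99). The other members were not called: MDH (malate dehydrogenase, Mv09135-RA) changed by 0.65, the blue light receptor CRY1 (Mv08907-RA) by 0.45, GGT1 (a photorespiratory aminotransferase, Mv14619-RA) by 0.17, PPC1 (phosphoenolpyruvate carboxylase, Mv20570-RA) by 0.10 and ADG1 (small subunit of the starch synthesis enzyme ADP-glucose pyrophosphorylase, Mv04628-RA) by −0.60 on the log2 scale. ADG1 had 157 and 142 FPKM in High light, against 227 and 226 FPKM in Darkness; the libraries did not overlap.

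**Figure D2:**
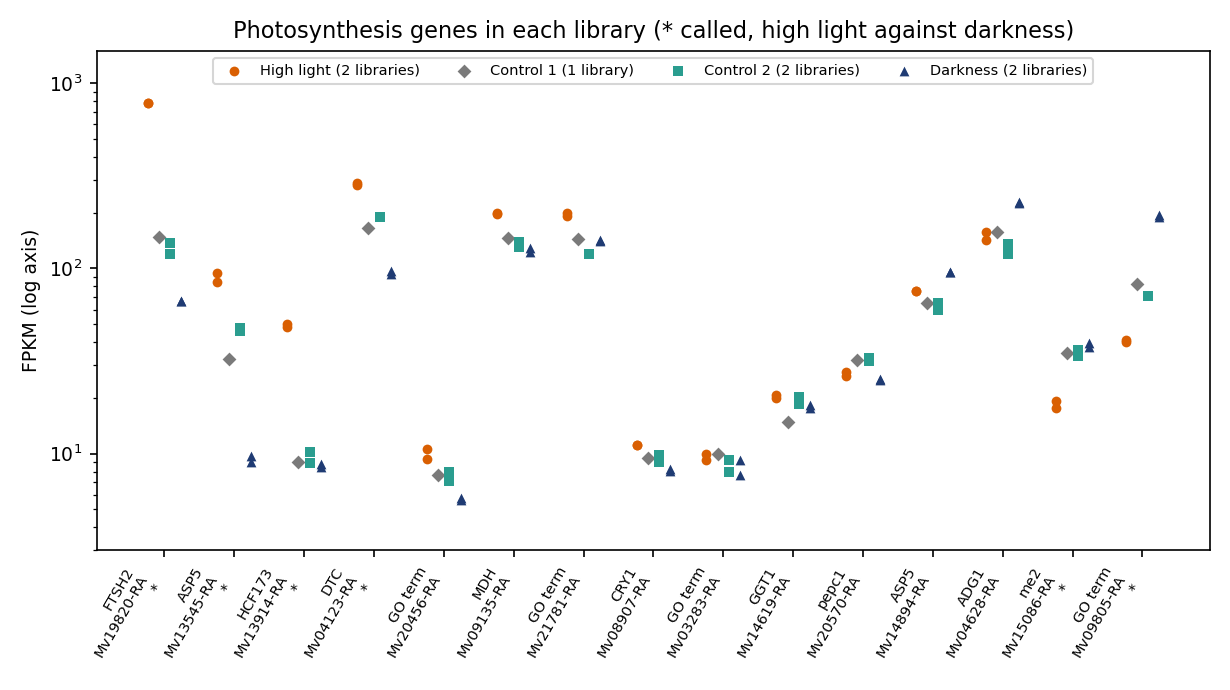
FPKM (log axis) of 11 photosynthesis genes and 4 genes with a photosynthesis term in each High light (orange circles), Control 1 (grey diamond), Control 2 (green squares) and Darkness (blue triangles) library, ordered by the log2 fold change between High light and Darkness; a star marks a called gene. FTSH2, at 788 and 780 FPKM in High light and 66.8 and 67.1 FPKM in Darkness, stands at the left end, and Mv09805-RA, at 40.2 and 41.1 FPKM in High light and 194 and 189 FPKM in Darkness, at the right.

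Genes that the study lists under plastid terms of the Gene Ontology (GO) also carried calls in both directions. Of 27 tested genes 6 were called higher and 2 lower (29.6% called, against 13.7% of all tested genes), with a median log2 fold change of 0.21. The strongest change was a fall. Mv09805-RA, which has terms for electron transport in photosystem I and for the assembly of photosystem II, had 40.2 and 41.1 FPKM in High light, against 194 and 189 FPKM in Darkness (4.72-fold higher in Darkness, −2.24 ± 0.06, adjusted p = 1.75e-10). Its untreated levels, 82.7 FPKM in Control 1 and 71.2 and 70.9 FPKM in Control 2, lay between the ends. The 3 other genes with a photosynthesis term were not called: Mv20456-RA changed by 0.80, Mv21781-RA by 0.46 and Mv03283-RA by 0.19. The other gene that fell, Mv10383-RA, a gene of the thylakoid membrane by its term, was chosen here after its values were seen. It fell by 1.05 on the log2 scale, with 123 and 127 FPKM in High light, against 263 and 253 FPKM in Darkness, and its call was lost with equal library totals (−0.91). The genes that rose have broad terms (plastid or chloroplast). Mv01737-RA had 6.93 and 6.49 FPKM in High light, against 1.602 and 1.40 FPKM in Darkness (2.09 ± 0.17). Mv19739-RA rose by 1.74 ± 0.11 and Mv15851-RA by 1.62 ± 0.07. For the last of these, 80.9 and 73.7 FPKM in High light stood against 23.7 and 26.4 FPKM in Darkness.

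Of the phytohormone genes, 14 of 16 were tested and 2 were called (14.3% called, against 13.7% of all tested genes). ABA1 (Mv14100-RA), the zeaxanthin epoxidase of the xanthophyll cycle and of abscisic acid synthesis, had 442 and 419 FPKM in High light, against 135 and 132 FPKM in Darkness (3.21-fold, 1.68 ± 0.06, adjusted p = 1.07e-09). Its untreated levels were close to those of Darkness, with 144 FPKM in Control 1 and 133 and 117 FPKM in Control 2. The change from Control 2 was 1.78 in High light (adjusted p = 1.55e-09) and 0.10 in Darkness (adjusted p = 0.181). IAR4 (Mv20562-RA), related to the E1 alpha subunit of pyruvate dehydrogenase and known from sensitivity to auxin conjugates, fell to 102 and 100 FPKM in High light, against 207 and 202 FPKM in Darkness (−1.01 ± 0.06). Its call was lost with equal totals (−0.88), with median-ratio scaling (−0.98) and without High light replicate 2 (−0.997) or Darkness replicate 1 (−0.99), all of them near the 2-fold limit. The other 12 genes, of auxin, abscisic acid, cytokinin and ethylene, were not called.

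Transcription factor genes were called in both directions. Of 112 tested genes 9 rose and 7 fell (14.3% called, against 13.7%), with a median of 0.02. The split turned with the scaling. With equal library totals 11 were called higher and 5 lower, against 1436 and 538 of all tested genes. With equal upper quartiles 7 were called higher and 11 lower, against 987 and 1088 of all tested genes. The bZIP family, which in *Arabidopsis* holds the light regulator HY5, had the widest spread. Of its 10 tested genes 1 was called higher and 3 lower (40.0% called, against 13.7% of all tested genes). Mv16600-RA (bZIP) had 89.4 and 79.5 FPKM in High light, against 12.2 and 11.4 FPKM in Darkness (7.16-fold, 2.83 ± 0.08). Mv11124-RA, also a bZIP gene, was its counterpart, with 11.99 and 11.6 FPKM in High light, against 83.6 and 84.2 FPKM in Darkness (7.11-fold higher in Darkness, −2.82 ± 0.12). In each of these 2 genes the untreated libraries lay near the middle of the span: Mv16600-RA had 24.9 FPKM in Control 1 and 33.0 and 31.8 FPKM in Control 2, and Mv11124-RA had 31.97 FPKM in Control 1 and 31.9 and 29.4 FPKM in Control 2. The R2R3-MYB gene Mv11642-RA had 39.9 and 36.9 FPKM in High light, against 5.73 and 5.99 FPKM in Darkness (2.69 ± 0.14). The homeodomain (HD) gene Mv09648-RA had 9.92 and 9.45 FPKM in High light, against 2.07 and 2.01 FPKM in Darkness (2.19 ± 0.09). The remaining called genes changed by less. A further pair of families was chosen here after their values were seen. The GARP family, which holds the GOLDEN2-like regulators of chloroplast development, had 0 of 12 genes called higher and 2 lower by limma (16.7% called, against 13.7%). The family median was −0.60. At an unadjusted limma p under 0.05, 1 gene lay above (8.33%) and 8 below 0 (66.7%), against 27.5% above and 33.0% below 0 of all tested genes. The B-box (BBX) family, with members that act in light signalling, had 1 of 6 genes called in each direction (33.3% called, against 13.7%).

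Genes of chromatin and small RNA pathways that were called were all higher in High light than in Darkness. Of 45 tested genes 7 were called higher and 0 lower by limma (15.6% called, against 13.7% of all genes), and at an unadjusted p under 0.05 there were 23 above (51.1%) and 5 below 0 (11.1%), against 27.5% and 33.0% of all tested genes; the median was 0.33, and with equal upper quartiles 1 gene was called lower. The untreated level was beyond the High light mean in 5 of the 7 called genes in Control 1 (1 library) and in 1 of them in Control 2. In the study's table a name can head a block of related genes, and 3 of the called genes are given by such a block. In the block of the histone H3 methyltransferase ATX1, Mv18898-RA had 12.03 and 12.9 FPKM in High light, against 2.37 and 2.28 FPKM in Darkness (2.37 ± 0.19). In the block of EFS (SDG8), Mv10940-RA had 10.8 and 9.79 FPKM in High light, against 1.93 and 2.07 FPKM in Darkness (2.31 ± 0.12). In the block of the DNA methyltransferase DMT2, Mv09173-RA, which is also listed as CMT3/MET1, had 17.6 and 15.6 FPKM in High light, against 3.66 and 3.98 FPKM in Darkness (2.09 ± 0.15). For these 3 genes Control 1 exceeded High light, at 15.3, 13.9 and 21.9 FPKM. Control 2 was below it for Mv18898-RA (8.76 and 8.16 FPKM) and for Mv09173-RA (10.5 and 9.53 FPKM), and overlapped it for Mv10940-RA (8.40 and 9.96 FPKM). Against Control 2 the Darkness level of Mv10940-RA was lower by 2.14 on the log2 scale (adjusted p = 1.38e-07), while its High light level differed by 0.17 (adjusted p = 0.268).

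For 2 called genes of this list neither untreated condition lay between the ends, and both lay on the same side. No other such case was found among the 57 called genes of all lists. Over all 1952 called genes, both untreated conditions lay beyond the Darkness mean in 73 and beyond the High light mean in 37. HST (HASTY, Mv00726-RA), an exportin homolog of the microRNA pathway, had 38.7 and 36.6 FPKM in High light, against 12.2 and 12.3 FPKM in Darkness (1.61 ± 0.09). Its untreated levels were lower still, with 7.49 FPKM in Control 1 and 6.20 and 6.45 FPKM in Control 2, so that both High light (2.55, adjusted p = 2.76e-09) and Darkness (0.94, adjusted p = 9.13e-06, under the 2-fold limit) lay above Control 2. NUC-L1 (Mv02515-RA), a nucleolin homolog of ribosomal RNA processing, had 45.03 and 44.9 FPKM in High light, against 16.2 and 16.7 FPKM in Darkness (1.44 ± 0.06). Here the untreated levels were higher than both, with 51.1 FPKM in Control 1 and 54.1 and 55.3 FPKM in Control 2.

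Of the genes of cell division and of the cell wall 152 were tested, and 10 were called higher and 2 lower (7.89% called, against 13.7% of all tested genes), with a median of 0.08. The group was affected by scaling: with equal library totals 18 genes were called higher, and after adding 1 FPKM in place of 0.1 there were 6. Over all 14297 tested genes these counts were 1436 and 977. With equal library totals the share called higher was thus not under that of all genes. The cyclin-dependent kinase homolog Mv14758-RA (CDKA;1/CDKB2;1) had 25.7 and 25.95 FPKM in High light, against 7.14 and 6.23 FPKM in Darkness (1.94 ± 0.09). MIND (Mv07662-RA), which places the chloroplast division site, had 69.1 and 70.9 FPKM in High light, against 21.0 and 21.8 FPKM in Darkness (1.71 ± 0.08). The fourth gene by size of change, after Mv09173-RA, Mv14758-RA and Mv07662-RA, was the myosin VIII homolog Mv10427-RA, at 3.001 and 2.66 FPKM in High light, against 0.987 and 1.07 FPKM in Darkness (1.38 ± 0.16), and its call was lost after adding 1 FPKM (0.92). The 2 genes that fell were chosen here after their values were seen: AUR1/AUR2 (an Aurora kinase homolog of mitosis, Mv07940-RA) fell by 1.21 ± 0.11 and SEC15B (an exocyst subunit, Mv20107-RA) by 1.03 ± 0.12 on the log2 scale. The SEC15B call was lost with equal library totals (−0.90), with median-ratio scaling (−0.99), after adding 1 FPKM (−0.89) and without High light replicate 2 (−0.96) or Darkness replicate 1 (−0.93). AUR1/AUR2 had 3.75 and 3.96 FPKM in High light, against 9.05 and 9.08 FPKM in Darkness, and Control 2 stood above both with 15.8 and 15.6 FPKM.

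Of 64 tested genes with other GO terms 6 rose and 2 fell (12.5% called, against 13.7% of all tested genes). Mv20784-RA, with terms for root development and lignin metabolism that come from land plants, had 408 and 391 FPKM in High light, against 25.01 and 24.6 FPKM in Darkness (16.1-fold, 4.003 ± 0.06, adjusted p = 2.04e-12). No other gene on the lists changed as much. Mv19321-RA (term: intracellular part) had 85.4 and 83.2 FPKM in High light, against 19.7 and 19.4 FPKM in Darkness (2.105 ± 0.06). Mv20016-RA (hydrolase activity) rose by 1.501 ± 0.06, and Mv22823-RA (endonuclease activity) fell by 1.83 ± 0.11 on the log2 scale. Over all lists, 42 of 419 tested genes were called higher and 15 lower, which is 13.6% against 13.7% for all tested genes.

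**Figure D3:**
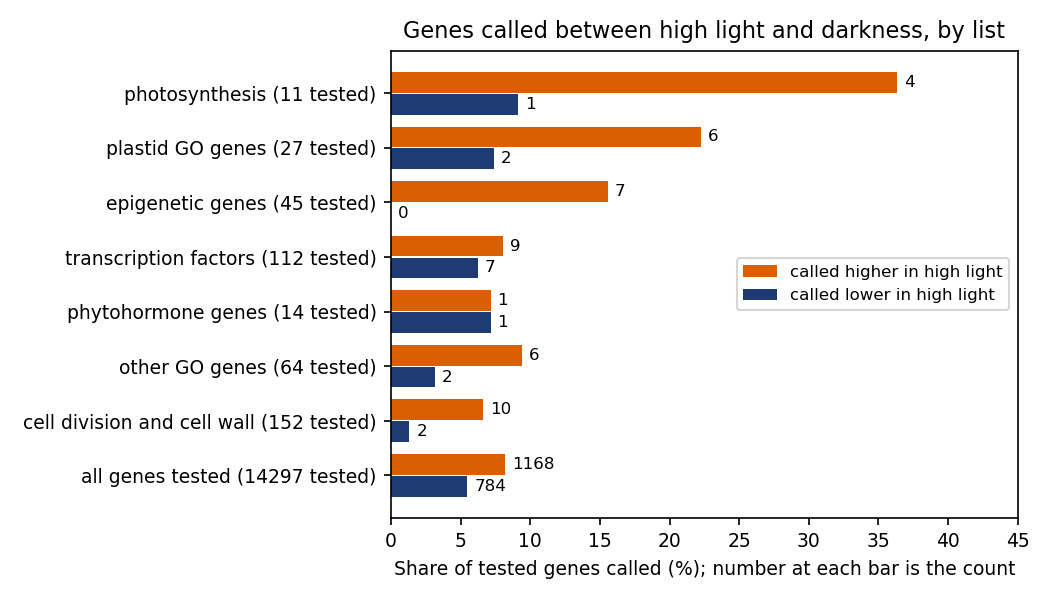
Share of tested genes called higher (orange) and lower (blue) in High light than in Darkness for each list and for all tested genes, in percent, with the count at each bar. In the main analysis all genes had 1168 higher and 784 lower of 14297. Photosynthesis (4 higher and 1 lower of 11) and plastid terms (6 and 2 of 27) exceed these shares. Cell division and cell wall genes (10 and 2 of 152) stay under them.

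The untreated libraries, at 50 μmol photons, were then placed on the span of each called gene, where position 0 is the Darkness mean and position 1 the High light mean of log2(FPKM + 0.1). Placement is a description and was not tested. For the genes higher in High light, the median position was 0.45 in Control 1 and 0.45 in Control 2. For the genes lower in High light it was 0.42 in Control 1 and 0.58 in Control 2, and the 2 Control 2 libraries by themselves gave 0.56 and 0.57. In the genes called at 4-fold or more that were higher in High light, the untreated libraries lay nearer to Darkness, at 0.32 in Control 1 and 0.35 in Control 2. Of the 1952 called genes 83.1% lay between the ends in Control 1 and 83.9% in Control 2, and 1423 did so in both. The untreated level was intermediate for most called genes, but these genes were chosen for ends that lie far apart. Libraries of the pH treatments lay between the ends in 78.9% to 79.7% of the same genes. The share was 41.8% and 43.1% in cold, and 35.1% and 33.1% at high temperature. The same reading on the 57 called genes of the lists gave a median of 0.58 in Control 1 and 0.56 in Control 2 for the 42 that rose, and 0.46 and 0.51 for the 15 that fell.

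Control 1 and Control 2 parted for genes outside the span. Of the 1168 genes higher in High light, 197 (16.9%) lay beyond the High light mean in Control 1 and 50 (4.28%) in Control 2. Of the 784 genes lower in High light, 14 (1.79%) lay beyond the High light mean in Control 1, against 118 (15.1%) in Control 2. Over the 197 genes, which are chosen by their Control 1 value, the median position was 0.65 and 0.64 in the 2 Control 2 libraries. In the other treatments it was 0.88 and 0.89 in cold, 0.30 and 0.33 at low pH, 0.19 and 0.23 at high pH, and −1.24 and −1.35 at high temperature. Over the 118 genes, chosen by their Control 2 value, Control 1 had a median position of 0.46, whereas the 2 cold libraries had 1.27 and 1.22, the 2 high temperature libraries 1.25 and 1.302, the 2 low pH libraries 1.27 and 1.303 and the 2 high pH libraries 1.31 and 1.29. Control 1 had 1 library with values here, so a difference of that condition and a difference of that library cannot be told apart.

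**Figure D4:**
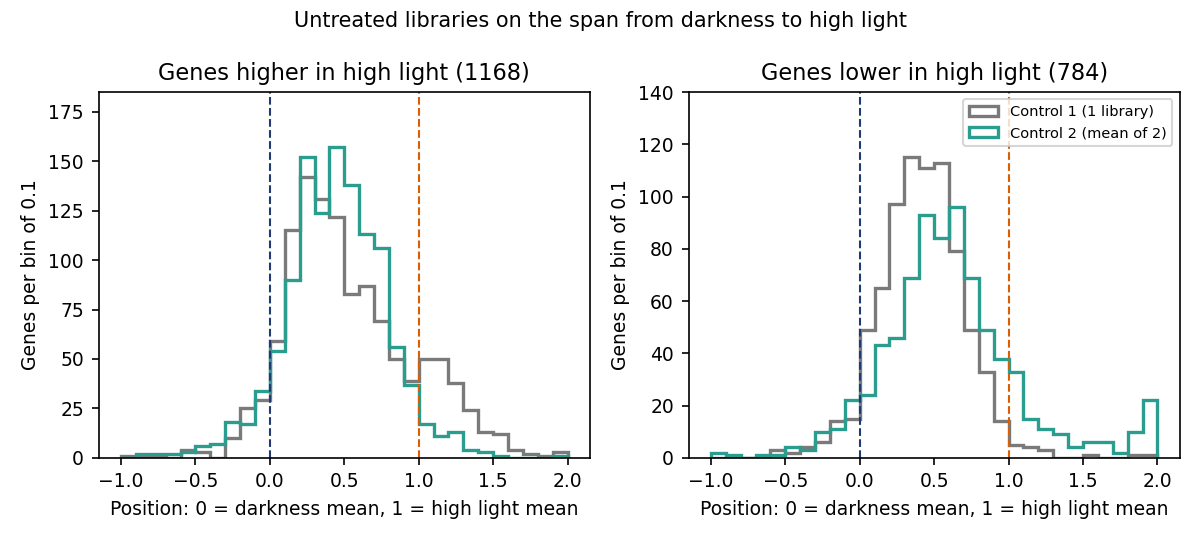
Number of called genes in bins of 0.1 of the position of Control 1 (grey, 1 library) and Control 2 (green, mean of 2 libraries) between the Darkness mean (0, blue dashed line) and the High light mean (1, orange dashed line), for the 1168 genes higher (left) and the 784 genes lower in High light (right); the outermost bins also hold genes beyond them. On the left Control 1 has a second group of genes beyond 1 (197 genes), and on the right Control 2 has 118 genes there.

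The step from the untreated level to each end was tested with Control 2 only, which has replicates. Control 2 is the study's reference for the pH treatments, whereas its light treatments were set against Control 1. A difference between Control 1 and Control 2 cannot be told apart from a light step in these results. High light differed from Control 2 in 1189 genes or 8.32% (799 higher, 5.59% of the tested genes, and 390 lower, 2.73%), and Darkness differed from Control 2 in 1463 genes or 10.2% (1013 higher, 7.09%, and 450 lower, 3.15%). The High light and Darkness libraries enter these comparisons too, and the same Control 2 libraries serve in both. Of the 1168 genes higher in High light than in Darkness, 94 had both steps called, 389 had the step between Control 2 and High light alone called, 230 the step between Control 2 and Darkness alone, and 455 neither. Of the 784 genes lower in High light, 41 had both steps called, 155 that to High light alone, 266 that to Darkness alone, and 322 neither. A gene with 1 step called is not thereby shown to have unequal steps, so the difference of the steps was tested as well, by setting Control 2 against the midpoint of the ends. This test was chosen after the data were seen.

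The steps differed by at least 1 on the log2 scale at an FDR of 0.01 in 575 of the 1952 called genes, a share of 29.5% of the higher and 29.5% of the lower genes, against 15.1% of all tested genes; the called genes were chosen for a wide span, which leaves room for unequal steps. Among the genes higher in High light, Control 2 was nearer to Darkness in 243 of these genes (159 of them inside the span), or 20.8%, and nearer to High light in 101 (59 inside), or 8.65%; over all tested genes the shares were 6.16% and 8.95%. Among the genes lower in High light the order was turned, with 71 nearer to Darkness (28 inside), or 9.06%, and 160 nearer to High light (58 inside), or 20.4%. In both groups, among the genes with unequal steps, Control 2 thus lay below the midpoint of the ends more often than above it. The named genes show both shapes. FTSH2 (steps unequal by 1.68 ± 0.10, adjusted p = 7.53e-07), HCF173 (2.22 ± 0.11, adjusted p = 1.93e-07), ABA1 (1.89 ± 0.10, adjusted p = 2.39e-07), Mv18926-RA (1.67 ± 0.12) and Mv20602-RA (2.72 ± 0.17) had Control 2 nearer to Darkness, and the larger step was the one to High light. ASP5 Mv13545-RA (1.37 ± 0.14, adjusted p = 2.69e-05), the R2R3-MYB gene Mv11642-RA (1.41 ± 0.24, adjusted p = 9.16e-04) and Mv10940-RA in the block of EFS (1.97 ± 0.20, adjusted p = 2.41e-05) had it nearer to High light, and the larger step was the one to Darkness. For the bZIP genes the difference of the steps was 0.07 ± 0.14 in Mv16600-RA and 0.08 ± 0.21 in Mv11124-RA, and for Mv20784-RA it was 0.12 ± 0.11; these were not called.

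Libraries of the other treatments were placed on the same span. Cold cells, at 50 μmol photons, lay at the High light end: the median position over the genes higher in High light was 0.98 in each of the 2 cold libraries, and over the genes lower in High light it was 1.17 and 1.15. The genes higher in High light held 20.9% and 21.0% of the FPKM total in cold, a larger share than the 18.7% and 18.0% in High light itself. FTSH2 averaged 845 FPKM in cold, HCF173 45.5 FPKM, ABA1 371 FPKM and Mv20784-RA 532 FPKM, and the bZIP gene that fell, Mv11124-RA, averaged 12.7 FPKM. The high temperature libraries did not follow one end. Their median position was 0.21 and 0.15 over the genes higher in High light, with quartiles that reached from below the Darkness mean to near the High light mean. Over the genes lower in High light it was 1.15 and 1.26. At high temperature FTSH2 averaged 728 FPKM, HCF173 78.1 FPKM and ABA1 395 FPKM, against 784, 49.1 and 430 FPKM in High light. Mv20784-RA averaged 118 FPKM and Mv11124-RA 25.2 FPKM, between their Darkness and High light levels. The pH libraries lay inside the span, at 0.37 to 0.41 for the higher and 0.63 to 0.74 for the lower genes. Positions of all these libraries are measured against the same 4 High light and Darkness libraries.

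**Figure D5:**
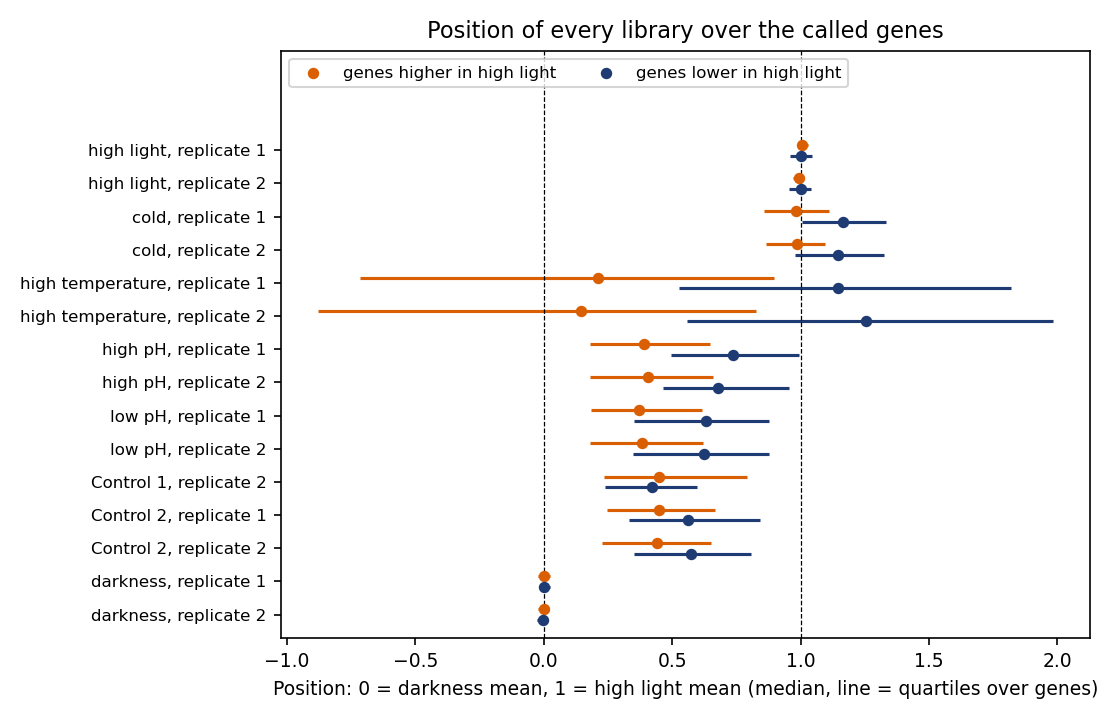
Median position (points) and quartiles (lines) over the 1168 genes higher (orange) and the 784 genes lower in High light (blue) for each of the 15 libraries, where 0 is the Darkness mean and 1 the High light mean, which those 4 libraries define. The cold libraries lie at 0.98 for the higher genes, the untreated libraries between 0.42 and 0.57 for either group, and the high temperature libraries have the widest quartiles.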

How the data were processed

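Per the study's methods, the authors aligned reads of stranded poly(A) libraries with Hisat2 and computed expression with Cufflinks; 1 deposited table of FPKM per library was read here. Control 1 replicate 1 is not analysed here. The filter (0.5 FPKM in 2 or more of 15 libraries) was followed by a limma fit (version 3.58.1, R 4.3.3) of log2(FPKM + 0.1) in 14 libraries, Control 1 left out, with 1 mean per condition, a variance prior following mean expression and 7 residual degrees of freedom. Calls required an FDR of 0.01 (Benjamini-Hochberg over all tested genes) and a 2-fold change; errors of fold changes are SE. Adding 0.1 understates the change of low genes. The fit was run on simulated libraries with independent noise, few changed genes and no differences in scaling. It recovered 83.4%, 90.1% and 97.3% of changes of 1.5, 2 and 3 on the log2 scale. The effect of scaling on the calls is not covered by that run.

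Members, lists and tests were chosen with earlier results of these data known. The list members come from the study, and its genes with GO terms were divided here into plastid and other terms. Named were the photosynthesis genes, the 4 called genes of each other list with the largest change (2 for phytohormones), the 2 genes that rose and 2 that fell most at an average of 10 FPKM or more, and the 2 called list genes with both untreated conditions outside the span. Precision at low FPKM is unknown, since fragment numbers are not given. Alternatives were other pseudocounts (1 and 0.01), minimums, thresholds, scalings, sets of libraries, a replicate block and leaving out each library.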

Additional observations from a re-analysis of the deposited data

How the results depend on the processing

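The count of genes called between High light and Darkness stayed within 1.5 times of 1952 under each of the 19 alternatives, from 1506 (adding 1) to 2075 (equal upper quartiles), and without each High light or Darkness library it was 1839 to 1932 (higher 1125 to 1153, lower 707 to 779). With the replicate number as a block the count was 1944, of which 1937 were among the 1952, and the block changed no call of a named gene. The differences between replicates 1 and 2 in High light and in Darkness correlated at 0.03 across genes. A shared effect of the replicate number was thus not visible, but this cannot tell whether the libraries were paired by culture or batch. Without the 2 high temperature libraries the count was 1976. Adding 1 FPKM gave 756 genes for High light against Control 2 (1189 with 0.1) and 856 for Darkness against Control 2 (1463); the cause was not tested. For genes higher in High light the median position of Control 1 was 0.44 after adding 1, 0.38 with median-ratio scaling and 0.32 for 4-fold genes, that of Control 2 0.43, 0.43 and 0.35, and that of the 3 untreated libraries together 0.45, 0.43 and 0.34 (0.46 in the main analysis). For genes lower in High light these were 0.44, 0.50 and 0.46 in Control 1, 0.60, 0.60 and 0.60 in Control 2, and 0.54, 0.57 and 0.55 over the 3 (0.53 in the main analysis). Without each High light, Darkness or Control 2 library the position of Control 2 was 0.44 to 0.45 for the higher and 0.56 to 0.58 for the lower genes, and that of the 3 untreated libraries together 0.51 to 0.54 for the lower genes. The count of unequal steps was 484 to 598 under its alternatives. Among the lists, the 7 transcription factor genes called lower were 11 with equal upper quartiles or quantile normalization. Over all tested genes the 784 called lower were then 1088 and 814. Other lists moved by more than 1.5 times only as given with the cell division list or at counts of 2 or fewer.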
